A study of Rattus norvegicus with 9 samples.

Results

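Serine-threonine protein phosphatases remove the phosphate groups that kinases such as PKA and CaM kinase II place on receptors, scaffolds and cytoskeletal proteins of the dendrite. The members described here are the genes of their catalytic and regulatory subunits, taken as every gene whose symbol starts with Ppp, a family number from 1 to 6, and c or r. Of the 14217 genes that the rat array named, 66 fitted this rule, and they were covered by 109 of 31042 probe sets. Spinophilin and neurabin (Ppp1r9b and Ppp1r9a) were left out of the set by the rule. There were 11 catalytic and 55 regulatory subunits. PP1 contributed 35 genes, PP2A 16, calcineurin 5, PP4 5, PP6 4 and PP5 1. The rule uses gene symbols alone.

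The RNA came from the processes of hippocampal neurons of Sprague-Dawley rats, cultured without treatment for 14 days from embryonic day 19 and labelled as pyramidal. Pools of 100, 200 or 400 severed dendrites were amplified and hybridised to 9 arrays, 3 for each pool size. The study could not tell axons from dendrites by shape, so each pool may hold some axonal RNA. It also allows that RNA of cell bodies may have contaminated the pools. Every sample went through several rounds of amplification. All 9 arrays share strain, age and treatment, and the pool size is the design's only contrast. Whether the replicates of a pool size came from separate cultures was not stated beyond the label "biological". The p-values for pool size thus measure only the spread between these arrays within a pool size. Whether it includes the spread between cultures is not known.

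In most of these enzymes a catalytic subunit carries the active site and regulatory subunits set where it acts and on what. PP1 pairs its catalytic subunit with any of a large set of targeting and inhibitor proteins. PP2A is built from a catalytic subunit, a scaffold (A) and a B-type subunit that selects substrates. Calcineurin joins a catalytic A subunit to a calcium-binding B subunit and is switched on by calcium and calmodulin. In hippocampal neurons PP1 and calcineurin are known for their part in long-term depression, and PP2A for the dephosphorylation of tau.

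Levels are given as log2 signals, with the median of the probe sets as the value of a gene. A percentile is the share of all 14217 genes with a signal at or below that of the gene on an array, and a gene's percentile is the median over the 9 arrays. Probes differ in affinity, so a percentile is a rank of signal and not of RNA amount. The array medians lay between 7.46 and 7.53, and the middle of all genes over the 9 arrays was 7.58. Pearson correlations between arrays were between 0.678 and 0.878.

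Most of the phosphatase genes were neither among the brightest nor among the dimmest genes. Of 66 members, 36 ranked above the 50th percentile, which is 54.5% beside 49.9% of all genes. In the top 5% highly expressed genes there were 4 members, 6.06% beside 5% of all genes. These were Ppp2r2b, Ppp3ca, Ppp2r5d and Ppp1r13l. The top 5% are the 711 genes of highest median percentile, so that Ppp1r13l is among them although its own percentile is just under 95. At the lower end, 7 members (10.6%) ranked below the 10th percentile, beside 7.36% of all genes. The set as a whole thus lay near the background in both directions, and the contrasts were within it.

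**Figure D1:**
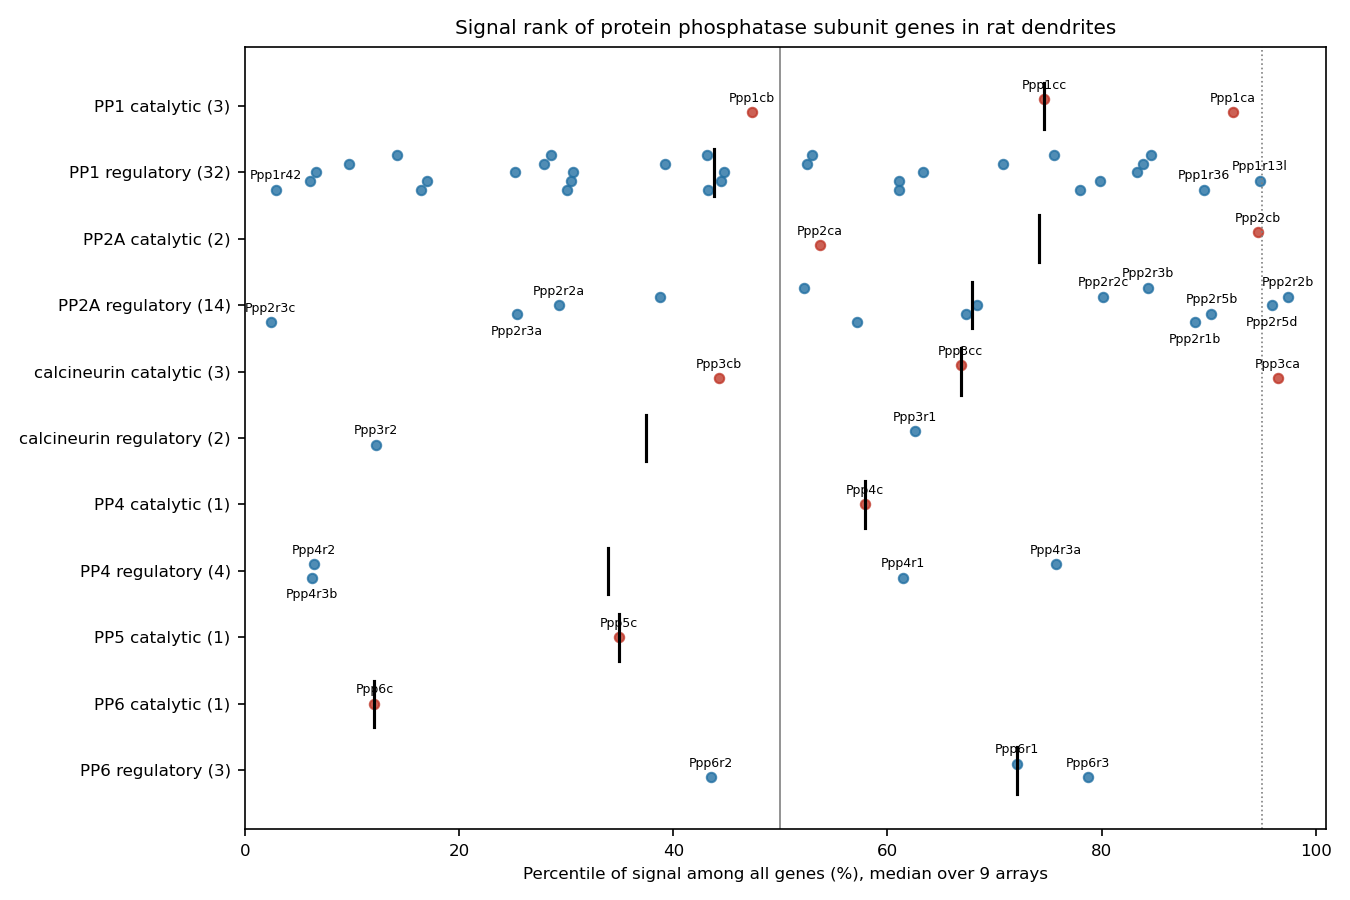
Percentile of signal among all genes (x axis, %, median over 9 arrays) for the 66 subunit genes, by family and role with the number of genes in parentheses. Points are genes (red catalytic, blue regulatory), black bars group medians, the solid line the 50th percentile and the dotted line the 95th. PP2A regulatory subunits reach from 2.40 (Ppp2r3c) to 97.4 (Ppp2r2b).

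Calcineurin held the highest-ranked catalytic subunit. Ppp3ca, the A-alpha catalytic subunit that prevails in brain, read 10.67, 10.74 and 10.56 in the pools of 100, 11.41, 11.21 and 10.65 in the pools of 200, and 11.44, 11.52 and 10.45 in the pools of 400 dendrites. Its mean log2 signal was 10.96 ± 0.43 (SD, n = 9), at percentile 96.5, and it ranked above the 95th percentile on all 9 arrays. The 3 pool sizes overlapped. The other brain isoform, Ppp3cb (A-beta), had 7.50 ± 0.77 at percentile 44.3, with a lowest value of 6.50, a median of 7.39 and a highest value of 9.08 in a pool of 400. Ppp3cc, the A-gamma isoform best known from testis, had 8.20 ± 0.24 at percentile 66.8, and its 9 values ran from 7.78 to 8.56. Ppp3ca ranked above both on 9 of 9 arrays.

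The calcium-binding subunits of calcineurin ranked below Ppp3ca. Ppp3r1, the B subunit found in most tissues, had 8.07 ± 0.61 at percentile 62.6, ranging from 7.22 in a pool of 100 to 8.99 in a pool of 200. Ppp3r2, the testis form of the B subunit, had 6.01 ± 0.69 at percentile 12.2, and it ranked below the 50th percentile on all 9 arrays. Ppp3r1 ranked above Ppp3r2 on 9 of 9 arrays.

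PP1 showed a similar spread among its catalytic isoforms. Ppp1ca (PP1 alpha) had 9.86 ± 0.54 at percentile 92.3, with a lowest value of 8.75, a median of 9.84 and a highest of 10.58. Ppp1cc (PP1 gamma), whose protein is known to be enriched in dendritic spines together with PP1 alpha, had 8.55 ± 0.72 at percentile 74.6. Ppp1cb (PP1 beta), the isoform that myosin-targeting subunits bind, had 7.32 ± 1.19 at percentile 47.3, the largest SD of any member. It read 7.99, 5.07 and 7.70 in the pools of 100, 7.60, 7.49 and 6.88 in the pools of 200, and 7.02, 9.52 and 6.64 in the pools of 400. The lowest and the highest value thus each came from 1 array, and the other 7 lay between 6.64 and 7.99. On 9 of 9 arrays Ppp1ca ranked above Ppp1cc, and Ppp1cc above Ppp1cb.

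Of the PP2A catalytic subunits, Ppp2cb (C beta) ranked above Ppp2ca (C alpha) on 9 of 9 arrays. Ppp2cb had 10.31 ± 1.05 at percentile 94.6, just outside the top 5%, and was spread from 8.75 to 12.05 with a median of 10.25. Ppp2ca had 7.69 ± 0.45 at percentile 53.7, from 7.07 to 8.29. Its 2 probe sets disagreed, with means of 6.57 and 8.81 at percentiles 18.7 and 78.7 of all probe sets. The brighter of them also read below Ppp2cb on every array. These 2 genes are close in coding sequence, and 1 more probe set, which names Ppp2ca together with Ppp2cal1, was not used. How far their probe sets share signal was not tested.

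The remaining catalytic subunits were in the middle or low. Ppp4c, the PP4 enzyme, had 7.80 ± 0.62 at percentile 57.9. Ppp5c, which carries its own regulatory domain in the same chain, had 7.14 ± 0.87 at percentile 34.9. Ppp6c, the PP6 enzyme, had the lowest rank of these with 5.92 ± 0.35 at percentile 12.1, and its highest value was 6.27. In the order of the 11 catalytic subunits by percentile (Ppp3ca, Ppp2cb, Ppp1ca, Ppp1cc, Ppp3cc, Ppp4c, Ppp2ca, Ppp1cb, Ppp3cb, Ppp5c, Ppp6c), only the steps from Ppp1ca to Ppp1cc and from Ppp5c to Ppp6c held on all 9 arrays. The other 8 neighbours changed places on 2 or more arrays.

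**Figure D2:**
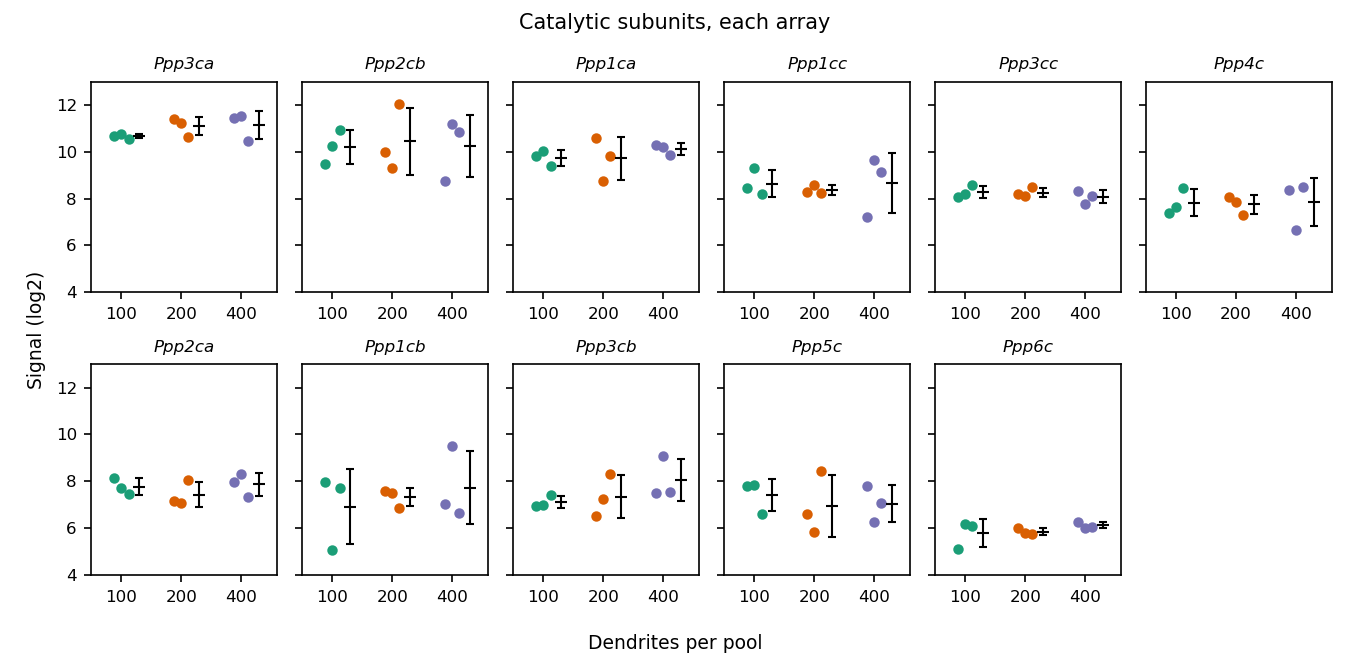
Log2 signal (y axis) of the 11 catalytic subunits on each array, by the number of dendrites in the pool (x axis), in the order of their percentiles. Coloured points are arrays, and black bars give the mean and SD of 3 arrays. The pools of 400 and 100 overlap for 10 of the 11 genes. For Ppp3cb the pools of 400 lie between 7.52 and 9.08 and those of 100 between 6.93 and 7.39, but its dimmest probe set went the other way.

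The PP2A scaffold and B-type subunits included 2 of the 4 members in the top 5%. Ppp2r2b (B beta), a subunit of neurons, read 7.79, 10.95 and 10.82 in the pools of 100, 11.18, 11.20 and 11.23 in the pools of 200, and 11.71, 10.82 and 11.15 in the pools of 400 dendrites. It had 10.76 ± 1.15 at percentile 97.4, with 8 of 9 arrays above the 95th percentile. A single array, replicate 1 of the pools of 100, was far below the others, and without it the mean was 11.13 ± 0.29 at percentile 97.4. Ppp2r5d (B′ delta) had 10.59 ± 0.26 at percentile 95.9 and stayed between 10.11 and 10.96.

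The other B-family subunits ranked lower. Ppp2r2c (B gamma), also known from brain, had 8.75 ± 0.26 at percentile 80.1. Ppp2r2d (B delta) had 8.03 ± 0.97 at percentile 67.3, with values from 6.29 to 9.23. Ppp2r2a (B alpha), the widely expressed form, had 6.90 ± 0.46 at percentile 29.3, and Ppp2r2b ranked above it on 9 of 9 arrays. Of the scaffolds, Ppp2r1b (A beta) had 9.32 ± 0.83 at percentile 88.7 and Ppp2r1a (A alpha) 8.20 ± 0.14 at 68.4. Ppp2r1b ranked above Ppp2r1a on 8 of 9 arrays. The 9 values of Ppp2r1a, from 7.93 to 8.41, had the smallest SD of any member. Each is the median of 2 probe sets, whose own SDs were larger, at 0.37 and 0.54. On replicate 1 of the pools of 400 these read 9.15 and 6.97, and on replicate 2 they read 8.16 and 8.65. The small SD of the gene value is thus not that of either probe set.

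Among the B′ subunits, Ppp2r5b (B′ beta) had 9.65 ± 0.67 at percentile 90.3. Ppp2r5c (B′ gamma), Ppp2r5a (B′ alpha) and Ppp2r5e (B′ epsilon) were near or below the middle at percentiles 57.2, 52.2 and 38.7. By the gene value Ppp2r5d ranked above Ppp2r5e on 9 of 9 arrays. The 5 probe sets of Ppp2r5e had means from 5.87 to 8.88. The B″ subunits bind calcium. Ppp2r3b had 9.06 ± 0.20 at percentile 84.3, Ppp2r3a 6.76 ± 0.36 at 25.4, and Ppp2r3c 5.46 ± 0.44 at 2.40, which was the lowest rank of all 66 members. In the order of the 14 scaffold and B-type subunits, the step from Ppp2r3a to Ppp2r3c was the only one that held on all 9 arrays.

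**Figure D3:**
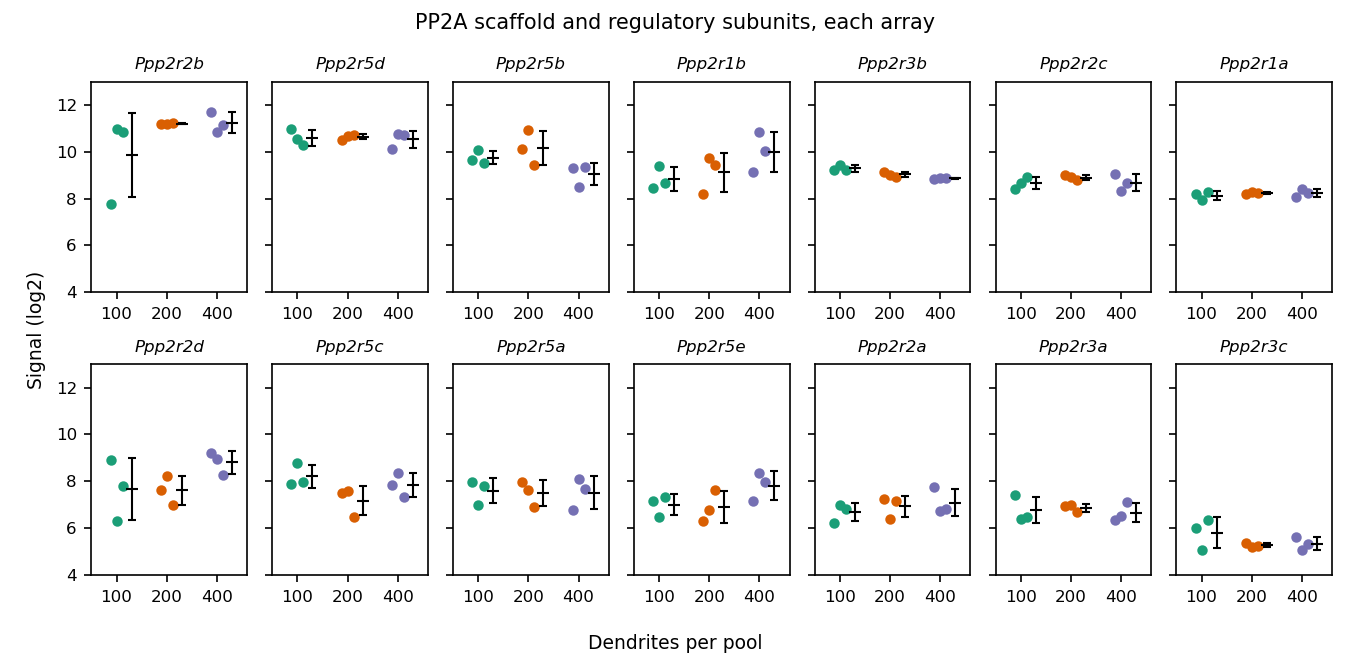
Log2 signal (y axis) of the 14 PP2A scaffold and B-type subunits on each array, by the number of dendrites in the pool (x axis), in the order of their percentiles. Coloured points are arrays, and black bars give the mean and SD of 3 arrays. The low point of Ppp2r2b, 7.79, is replicate 1 of the pools of 100 dendrites.

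PP1 has the most regulators, and these 32 genes had a median percentile of 43.8. The highest-ranked was Ppp1r13l (iASPP), an inhibitor of p53 family proteins, with 10.19 ± 0.46 at percentile 94.8 and values from 9.59 to 10.97. It ranked above the 95th percentile on 3 of 9 arrays and was the last of the 4 members in the top 5%. Its relative Ppp1r13b ranked at percentile 25.2. Ppp1r36, a regulator of little known function, had 9.49 ± 0.67 at percentile 89.6.

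The inhibitors Ppp1r1b and Ppp1r1a, which PKA switches on, were both high in rank by the gene value. Ppp1r1b (DARPP-32), the dopamine-regulated inhibitor best known from striatum, had 9.09 ± 0.32 at percentile 84.6 and ranked above the 50th percentile on 9 of 9 arrays. Ppp1r1a (inhibitor-1), which links PKA and calcineurin to PP1 in hippocampal plasticity, had 8.79 ± 0.57 at percentile 79.9. Its 2 probe sets disagreed, with means of 7.27 and 10.32 at percentiles 45.9 and 93.8 of all probe sets. Ppp1r1c, the third gene of this group, had 5.63 ± 0.29 at percentile 6.63. Ppp1r2 (inhibitor-2) had 6.97 ± 0.53 at percentile 39.2.

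Regulators that hold PP1 in the nucleus did not share a level. Ppp1r8 (NIPP1) had 8.82 ± 1.02 at percentile 83.3, with a lowest value of 6.43, a median of 8.97 and a highest of 10.20. Ppp1r10 (PNUTS) had 7.26 ± 0.72 at percentile 44.5. Ppp1r7 (SDS22), which binds newly made PP1, had 6.60 ± 0.43 at percentile 27.9. Ppp1r11, another inhibitor of PP1, had 8.17 ± 0.56 at percentile 61.1.

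The targeting subunits for myosin and membranes were in the middle. Ppp1r12c, Ppp1r12b and Ppp1r12a, of the myosin phosphatase, had percentiles of 70.8, 52.5 and 43.1. Their relatives Ppp1r16b and Ppp1r16a, which attach to membranes, had 83.9 and 53.0. The kinase-potentiated inhibitors of myosin phosphatase were at 75.6 (Ppp1r14c, known from brain), 30.6 (Ppp1r14b) and 14.2 (Ppp1r14a, known from smooth muscle). The subunits that direct PP1 to the translation factor eIF2alpha, Ppp1r15a (induced by stress) and Ppp1r15b (constitutive), were both below the middle at 44.7 and 30.02. The 2 probe sets of Ppp1r15b lay on either side of the middle, at percentiles 63.8 and 12.2 of all probe sets.

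Glycogen-targeting subunits were mostly low. Ppp1r3f had percentile 61.1 and Ppp1r3d 43.2, whereas Ppp1r3b, of liver and muscle, had 9.71 and Ppp1r3a, of skeletal muscle, 6.04. Ppp1r17, a regulator known from cerebellar Purkinje cells, had percentile 16.4, and Ppp1r42 had 2.89 with 5.41 ± 0.18. The other PP1 regulators were Ppp1r37 (78.0), Ppp1r26 (63.3), Ppp1r18 (30.4), Ppp1r35 (28.5) and Ppp1r21 (17.0), each given by its percentile. Ppp1r35, a centriole protein, had an SD of 1.10, with 1 value of 9.11 and the other 8 between 5.62 and 7.94.

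The regulators of PP4 and PP6 were both high and low. Ppp4r3a had percentile 75.8 and Ppp4r1 61.5, while Ppp4r2 and Ppp4r3b had 6.39 and 6.21. Of the PP6 regulators, Ppp6r3 had percentile 78.7, Ppp6r1 72.1 and Ppp6r2 43.5, all above that of the enzyme Ppp6c.

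Families were compared by the median percentile of their members. PP2A had 67.9, calcineurin 62.6 and PP1 44.7, where all genes had 49.9. On single arrays the median over members had a mean of 67.9 ± 2.61 (SD, n = 9) for PP2A, 59.8 ± 10.1 for calcineurin and 47.3 ± 5.06 for PP1. The lowest array of PP2A, at 64.4, was above the highest of PP1, at 56.3. Calcineurin, with 5 genes, ran from 40.1 to 70.3 and overlapped both. Its place depended on the gene summary. With the mean of the probe sets its median was 39.0, below the 47.1 of PP1, while PP2A had 67.8. Leaving out 1 array at a time moved the PP2A value to between 64.9 and 68.2. These are descriptions of ranks over few genes, with no test over members.

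Catalytic subunits had a median percentile of 57.9 and regulatory subunits 52.5. On single arrays the catalytic median was above the regulatory one on 9 of 9 arrays, by 13.6 ± 10.1 percentile points and by between 3.53 and 33.4. The largest gap was on replicate 2 of the pools of 400. The order depended on the probe sets. With the probe set of highest mean signal for each gene, the catalytic median was 58.6 and the regulatory 61.6, a difference of -3.03. Without replicate 1 of the pools of 400, the difference was 0.54.

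Replicate 2 of the pools of 400 stood apart for the catalytic subunits. On that array 8 of 11 catalytic subunits were above their own 9-array mean, with a median deviation of 0.56 log2 units, and on replicate 1 of the pools of 400 it was 8 of 11 with 0.28. On the other 7 arrays the median deviation was between -0.14 and -0.02. The regulatory subunits deviated by 0.025 on replicate 2 of the pools of 400. That array also had the largest 3′ to 5′ difference of the actin control probe sets, 2.41 log2 units where the 9 arrays began at -0.43. The same difference for the GAPDH and hexokinase controls was largest on replicate 1 of the pools of 100, at 2.99 and 1.15, against 2.42 and 0.78 on replicate 2 of the pools of 400. The 12 measured astrocyte markers had their highest median there, 9.12 against 6.86 to 8.69 on the other 8 arrays, and so had the 12 fibroblast and mural cell markers with 8.31 against 6.72 to 7.40. The part of RNA quality and of other cells in the catalytic values was not tested.

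Several phosphatase genes were measured by probe sets that disagreed. Of the 66 members, 36 had 1 probe set, 20 had 2 and 10 had 3 to 5. In 17 of the 30 members with more than 1 probe set (56.7%) the mean signals differed by more than 2 log2 units, beside 37.4% of the 4525 such genes on the array. The median range was 2.23 for members and 1.54 for all such genes. Members differ from other genes in their number of probe sets, and its part in this was not tested.

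The widest case was Ppp4r3a, whose 3 probe sets had means of 5.81, 8.37 and 13.56. The brightest of them varied least (SD 0.15) and lay at percentile 99.8 of all probe sets, while the gene value was at 75.8. Ppp1r12a had 4 probe sets with means of 5.12, 6.81, 7.61 and 11.07, and Ppp2r5c had 3 with 5.46, 7.89 and 10.35. Ppp2r2c had 7.06 and 10.44, and Ppp2r3a 5.20 and 8.33. For these genes the rank rests on which probe set is read. The same holds for others of the 17 members whose means differed by more than 2 log2 units. Percentiles of all probe sets were 23.3 and 74.4 for Ppp2r5a, 17.2 and 79.2 for Ppp1r3d, and 29.4 and 87.8 for Ppp4r1. For Ppp1r2 they ran from 31.0 to 78.8, and for Ppp2r5e from 11.3 to 83.1.

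Among the brightest members the disagreement was smaller in rank. The 3 probe sets of Ppp3ca had means of 9.42, 10.96 and 12.27, at percentiles 85.4, 94.96 and 99.1 of all probe sets. The 2 of Ppp2r5d had 9.36 and 11.81, at percentiles 88.0 and 98.2. Of the 3 probe sets of Ppp3r1, 2 read 8.35 and 8.39 and the other 5.60. Those of Ppp3cc (8.18 and 8.22) and Ppp2r3b (9.04 and 9.09) were nearly the same in mean but not on single arrays. On replicate 1 of the pools of 100 the 2 of Ppp2r3b read 10.30 and 8.12. On replicate 1 of the pools of 200 they read 8.23 and 10.05, and those of Ppp3cc 7.58 and 8.78. When percentiles were taken among all probe sets and the median over the probe sets of a gene last, 1 member was in the top 5% in place of 4. Ppp2r2b, Ppp1r13l, Ppp2cb and Ppp1ca have 1 probe set each and no such check.

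**Figure D4:**
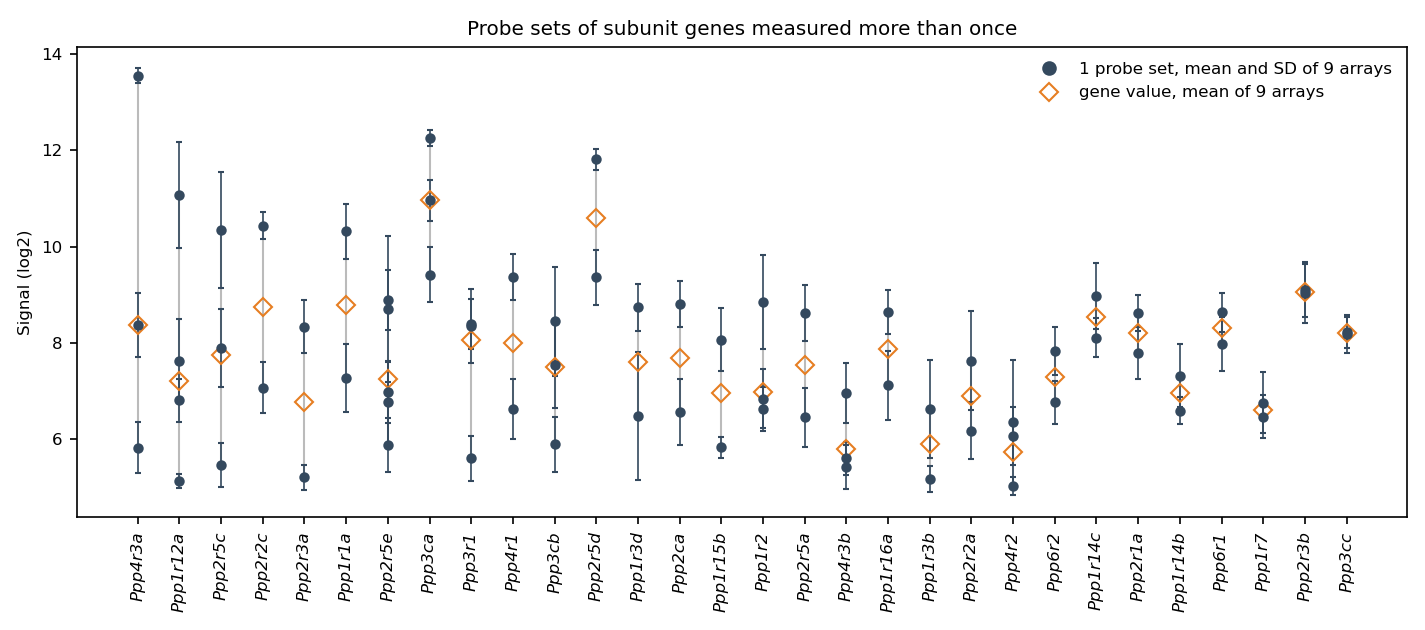
Mean log2 signal and SD over 9 arrays (y axis) of each probe set of the 30 members measured by more than 1 (x axis, ordered by the range of the means). Dark points are probe sets and orange diamonds the gene value, the median of the probe sets taken on each array and averaged. The range falls from 7.74 log2 units for Ppp4r3a to 0.04 for Ppp3cc.

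The spread between arrays was that of other genes. The median SD over the 9 arrays was 0.54 log2 units for members and 0.55 for all genes. An SD above 1 was found for 5 members (7.58%, beside 6.66% of all genes), namely Ppp1cb, Ppp2r2b, Ppp1r35, Ppp2cb and Ppp1r8. None of 8 chosen pairs of subunits passed a test of correlation across arrays. Ppp3ca and Ppp3cb were each paired with their partner Ppp3r1, and the other pairs were isoforms of the same subunit. Catalytic subunits of PP1 and PP2A were not paired with their regulators or scaffolds. Over 8 pairs and 9 arrays, Pearson's r was between -0.29 and 0.37 and Spearman's rho between -0.08 and 0.53. The highest was the pair of scaffolds Ppp2r1a and Ppp2r1b (r = 0.37, p = 0.321; rho = 0.53, p = 0.147; exact permutation tests, two-sided). Its adjusted p over the 8 pairs was 0.967 for r and 1.0 for rho, and r was 0.82 without the 2 arrays farthest in Ppp2r1a. The partners Ppp3ca and Ppp3r1 had r = 0.21 and rho = -0.07 (exact permutation p = 0.580 and 0.880), with r = 0.27 without 2 arrays. Within a pool size there are 3 arrays, too few for a correlation.

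The last question was whether subunit signals differed by pool size. No member passed the test in any contrast. Fitted with limma over all 14217 genes, 0 of 66 members and 0% of all genes had an adjusted p under 0.05 for 400 against 100, 200 against 100, 400 against 200 or the F test over 3 pool sizes. The smallest adjusted p-values over all genes were 0.9991, 0.9999, 0.9994 and 0.9997. At an unadjusted p under 0.05 there was 1 member for 400 against 100 (1.52%, beside 2.41% of all genes), 2 for 200 against 100 (3.03%, beside 3.03%), 2 for 400 against 200 (3.03%, beside 2.3%) and 1 in the F test (1.52%, beside 2.16%). A lower signal in a pool could come from fewer dendrites of a kind or from less RNA in each, which cannot be told apart here.

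The gene with the smallest p for 400 against 100 was Ppp1r12a, the subunit that brings PP1 to myosin. It read 7.85, 7.86 and 7.35 in the pools of 100, 7.39, 6.84 and 7.94 in the pools of 200, and 6.49, 6.39 and 6.79 in the pools of 400. The pools of 400 did not overlap with either of the others. The difference of 400 minus 100 was -1.13 log2 units (SE 0.38, 95% interval -1.97 to -0.30, limma adjusted p = 0.9991). Its brightest probe set alone gave a difference of -1.10, and the unadjusted p was no longer under 0.05. That probe set read 11.29, 11.38 and 11.41 in the pools of 100, 11.52, 11.72 and 11.53 in the pools of 200, and 8.14, 11.29 and 11.35 in the pools of 400. The difference of this probe set thus rested on replicate 1 of the pools of 400, and it was -0.04 without that array. The middle probe sets, which set the gene value, read 8.58, 8.38 and 7.405, and 7.13, 7.33 and 7.30 in the pools of 100. In the pools of 400 they read 6.35, 6.61 and 7.36, and 6.63, 6.16 and 6.23. The dimmest stayed between 4.83 and 5.32 on all arrays.

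For 200 against 100 the members with unadjusted p under 0.05 were Ppp1r8 and Ppp2r5c. Ppp1r8 read 10.20, 8.97 and 9.09 in the pools of 100 and 8.52, 6.43 and 8.83 in the pools of 200. The difference was -1.50 (SE 0.60, 95% interval -2.80 to -0.19, limma adjusted p = 0.9999), and it was -0.75 without the array of 6.43, replicate 2 of the pools of 200. Ppp2r5c read 7.88, 8.77 and 7.97 in the pools of 100 and 7.49, 7.58 and 6.45 in the pools of 200, a difference of -1.03 (SE 0.45, 95% interval -2.003 to -0.05, limma adjusted p = 0.9999). It became 0.05 with the brightest probe set. It was -0.67 without replicate 3 of the pools of 200.

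For 400 against 200 they were Ppp1r12b and Ppp2r5b, which differed in opposite directions. Ppp1r12b read 5.67, 7.97 and 6.73 in the pools of 200 and 8.73, 7.61 and 8.33 in the pools of 400, and the groups overlapped. The difference was 1.44 (SE 0.54, 95% interval 0.27 to 2.61, limma adjusted p = 0.9994), with 0.88 without replicate 1 of the pools of 200. Ppp2r5b read 10.13, 10.92 and 9.45 in the pools of 200 and 9.29, 8.50 and 9.34 in the pools of 400, without overlap. The difference was -1.12 (SE 0.44, 95% interval -2.08 to -0.16, limma adjusted p = 0.9994), and it was -0.74 without replicate 2 of the pools of 200.

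Other differences of 400 minus 100 were 1.38 for Ppp2r2b (95% interval -0.14 to 2.90), 1.16 for Ppp2r1b (-9e-04 to 2.32), 1.15 for Ppp2r2d (-0.17 to 2.46) and 0.83 for Ppp2r5e (-0.18 to 1.84), and each interval held 0. Single arrays or probe sets carried much of these. That of Ppp2r2b was 0.34 without replicate 1 of the pools of 100, that of Ppp2r2d 0.46 without replicate 2 of the pools of 100, and that of Ppp2r1b 0.74 without replicate 2 of the pools of 400. That of Ppp2r5e was 0.14 with the brightest probe set. Among the catalytic subunits, Ppp3cb had 0.94 (95% interval -0.24 to 2.11), Ppp1cb 0.81 (-1.003 to 2.62), Ppp3ca 0.48 (-0.39 to 1.34) and Ppp1ca 0.37 (-0.64 to 1.37). The difference of Ppp1cb was -0.12 without replicate 2 of the pools of 100 and -0.09 without replicate 2 of the pools of 400, the arrays of its lowest and highest value. That of Ppp3cb was 0.42 without replicate 2 of the pools of 400, and its dimmest probe set went the other way. This probe set read 6.93, 6.22 and 6.44 in the pools of 100 and 5.43, 5.16 and 5.47 in the pools of 400. The other probe sets of Ppp3cb had higher means in the pools of 400 than of 100. The difference of Ppp3ca was -0.14 with the brightest probe set. The intervals, which were not adjusted for the number of genes, reached a median of 0.97 log2 units to either side. With 3 arrays a group, differences larger than that in single subunits, such as those of Ppp1r12a and Ppp1r8, were not called after adjustment either.

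Without regard to the test, the pools of 400 and 100 did not overlap for 5 members (7.58%, beside 6.25% of all genes), which were Ppp1r12a, Ppp1r7, Ppp2r3b, Ppp2r5b and Ppp3cb. For 200 and 100 there were 5 (7.58%, beside 7.8%), namely Ppp1r8, Ppp1r16b, Ppp2r2b, Ppp2r3b and Ppp2r5c. For 400 and 200 there were 9 (13.6%, beside 6.77%), namely Ppp1r3d, Ppp1r11, Ppp1r12a, Ppp1r16b, Ppp2r2d, Ppp2r3b, Ppp2r5b, Ppp4r1 and Ppp6c. Each contrast shares a group with the other two, so these lists are not independent. Ppp2r3b was in all of them, with 9.21, 9.45 and 9.21 in the pools of 100, 9.14, 9.02 and 8.94 in the pools of 200 and 8.84, 8.87 and 8.90 in the pools of 400. Its difference of 400 minus 100 was -0.42 (95% interval -1.11 to 0.27), and it was 0.05 with the brighter of its 2 probe sets.

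In direction the members were split, with 37 of 66 higher and 29 lower in the pools of 400 than of 100 and a median difference of 0.06 log2 units, beside 0.02 over all genes. For 200 minus 100 it was 29 higher and 37 lower with a median of -0.06, beside 0.00. For 400 minus 200 it was 44 higher and 22 lower with a median of 0.10, beside 0.01. Of the catalytic subunits 9 of 11 were higher in the pools of 400 than of 100, but 5 of 11 were without replicate 1 of the pools of 100, an alternative chosen after seeing the data. The fibroblast and mural cell markers had array medians of 6.72 to 7.21 in the pools of 100 and 7.11 to 8.31 in those of 400, and their part was not tested.

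**Figure D5:**
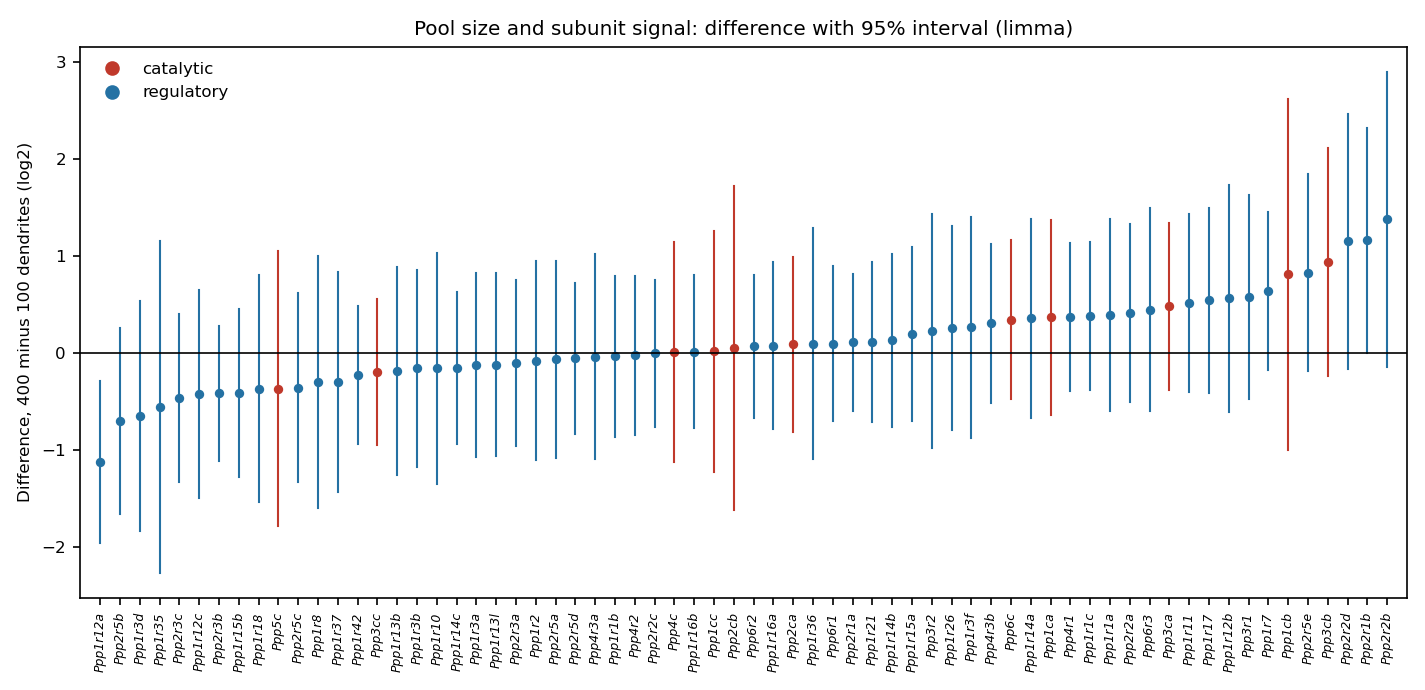
Difference in log2 signal between pools of 400 and 100 dendrites (y axis, 400 minus 100) for the 66 members (x axis, in order of the difference). Points are limma estimates (red catalytic, blue regulatory) and lines 95% intervals, not adjusted for the number of genes. The interval of Ppp1r12a, -1.97 to -0.30, is the only one that leaves out 0.

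Genes that work with or against these phosphatases were looked at as lists, all fixed by function. Of the inhibitors and partners that carry other symbols, 27 of 38 were measured, 17 of them above the 50th percentile and 0 in the top 5%. Akap11, an anchoring protein that binds PP1 and PKA, was the highest at percentile 89.7, followed by striatin (Strn, a B-type subunit of PP2A) at 85.2 and Lmtk2 at 84.4, and Wdr82 was the lowest at 14.9. Of the PPM and PHLPP phosphatases, a separate family of metal-dependent enzymes, 18 of 20 were measured, 9 above the 50th percentile and 0 in the top 5%. Tab1, a catalytically inactive relative, led at 92.5, with Ppm1l at 83.5 and Ppm1n at 81.8, and Pdp1 was last at 11.4.

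Regulators and substrates of calcineurin lay higher, with 16 of 22 measured genes (of 26 listed) above the 50th percentile and a median of 65.8. The substrate synaptojanin (Synj1) had 12.10 ± 0.19 at percentile 99.4, and Calm2, which encodes the calmodulin that activates the enzyme, had 11.11 ± 0.69 at 97.5. Fkbp1a, the protein through which FK506 blocks calcineurin, ranked at 94.1, and Nfatc2 was the lowest at 27.4. Of the kinases that oppose the phosphatases, 25 of 31 measured genes (of 35 listed) were above the 50th percentile, with a median of 61.1. Camk2g had 11.18 ± 0.40 at 97.7 and Prkar1a, the PKA regulatory subunit, 10.71 ± 1.81 at 97.9. Csnk1d ranked at 93.0, and Cdk5r2 was the lowest at 14.3. In the 3 pool contrasts 0 genes of these 4 lists had an adjusted p under 0.05 by limma, as for all genes.

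The labelled cell type was checked with marker genes. All 13 listed dendritic mRNAs were measured, with a median percentile of 83.2 and 3 in the top 5%, although Camk2a, a classical dendritic mRNA, ranked at 28.8. Pyramidal markers had a median percentile of 71.0, astrocyte markers 68.4, oligodendrocyte lineage markers 56.4, endothelial markers 43.3, interneuron markers 36.9, fibroblast and mural cell markers 32.3 and microglia markers 31.0. The top 5% held 2 of 11 measured pyramidal markers and 2 of 10 endothelial markers, Vwf at percentile 99.8 and Esam at 98.5, and 0 markers of the other 5 cell type lists. The share of other cells, astrocytes among them, in the RNA of the pools was not tested.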

How the data were processed

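Values were the log2 probe set signals that the authors deposited for 9 Affymetrix rat arrays, made with RMA version 2.0 per the submitters' processing notes. RMA subtracts background, equalises array distributions and summarises probes, which can compress differences. The centring and scaling that the methods describe were not applied to them. Before this, RNA passed through several rounds of linear amplification, which favours 3′ ends. Mouse arrays were not used here. From the 31099 probe sets, 57 controls were set aside. Of the rest, 20826 named 1 gene, 436 several and 9780 none. Symbols were updated through Entrez IDs for 20758 probe sets and kept for 68, with 0 changes among the members. Where several probe sets named a gene alone, their median stood for it.

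Pool sizes were compared with limma 3.58.1 in R 4.3.3, in 1 moderated linear model over all 9 arrays, two-sided, with Benjamini-Hochberg adjustment over 14217 genes and a threshold of 0.05. Percentiles and exact permutation tests were computed in Python 3.11.15 (pandas 2.3.3, scipy 1.17.1, numpy 2.4.6), and matplotlib 3.10.9 drew the figures. The fit was tested on simulated data, with normal noise of each gene's own spread and changes between pools of 400 and 100. Of 50 genes changed by each size, 0 were recovered at 1 log2 unit, 18 at 2, 39 at 3 and 46 at 4. The number of arrays limits the precision. No genome or protein sequence was used here, so positions and sequences are not given.

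The members and lists were chosen with earlier results of these data known. The rule named all catalytic, calcineurin and PP2A subunits, 8 PP1 regulators, the extremes of percentile, SD, probe set range and p, and the ends of each list. Other members are named so that each is accounted for. Alternatives were the probe set of highest mean, the mean of the probe sets, percentiles among probe sets, probe set types, the rank of the mean signal, the methods' centring and scaling, quantile normalization, array weights, trend and robust settings, genes of above-median signal only, the methods' t-test, a replicate block, other thresholds, a fit over probe sets and leaving out each array.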

Additional observations from a re-analysis of the deposited data

How the results depend on the processing

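In each alternative fit, leave-one-out fits included, 0 members had an adjusted p under 0.05 in any contrast. With array weights (0.456 to 2.41 per array) the members at an unadjusted p under 0.05 were 4, 2 and 6 for 400 against 100, 200 against 100 and 400 against 200, by the methods' t-test 3, 1 and 1, and by the fit over probe sets 4, 5 and 4. Deviations from the pool mean correlated between -0.189 and 0.0926 for same-numbered arrays, and between -0.191 and 0.218 for differently numbered ones. Same-numbered arrays were thus no more alike than others. Deviations from means of 3 arrays sum to 0 within a pool size, so they cannot tell whether arrays share a culture. With the replicate number as a block 0 members were called, with 2, 2 and 3 at an unadjusted p under 0.05. Each number occurs once per pool size, so the block leaves every difference unchanged and only its p-value can move. The methods' t-test and the trend and robust settings leave the differences unchanged too.

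The gene summary mattered most. With the probe set of highest mean, the median percentile was 61.6 for regulatory subunits, 53.0 for PP1 and 77.4 for PP2A, and the catalytic minus regulatory difference was reversed at -3.03. The calcineurin median was 39.0 with the mean of the probe sets, below that of PP1. The members in the top 5% were 1 with percentiles among probe sets, and 9 members were in the top 10%. Leaving out 1 array moved the PP2A median to between 64.9 and 68.2, and the number of catalytic subunits higher in pools of 400 than of 100 to between 5 and 8. On the brightest probe set the difference was reversed for Ppp2r5c (0.046) and Ppp4r3a (0.0385) in 200 minus 100, and for Ppp2r3b (0.0531), Ppp1r3d (0.13) and Ppp3ca (-0.14) in 400 minus 100. That of Ppp1r3d was 0.0396 without replicate 2 of the pools of 100, and -1.27 without replicate 1, the ends of its leave-one-out range. That of Ppp1cb ran from -0.12 without replicate 2 of the pools of 100 to 1.35 without replicate 3 of the pools of 400, and was -0.09 without replicate 2 of the pools of 400. The cause was not tested. Of the other recomputed values, 184 for the groups and counts kept their size within the limits set. For single members 272 kept direction and side of the threshold, though some moved in size. Under settings that leave the differences unchanged, direction could not turn. Alternatives chosen after seeing the data were those for the direction counts and for single members in 200 minus 100 and 400 minus 200, and the left-out arrays for the brightest probe set of Ppp1r12a. With 3 arrays a group and probe sets that disagree, neither small differences nor the order of neighbouring members can be read.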
